A study of Homo sapiens with 2 samples.

Results

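The 42 genes described here encode the machinery of mitosis: the kinases and cyclins that drive it, the proteins that hold and pull chromosomes, the motors and proteins of the spindle, and the factors that end it. They were chosen by name, not by a rule on measured values, but with earlier results of these data known. All 42 were found once each among the 36027 genes of the count table. Their transcripts were followed in SK-N-BE(2)-C, an established human neuroblastoma cell line, made to carry HRASV12, a mutant and permanently active form of the small GTPase HRAS, under a doxycycline-inducible promoter. One culture, the HRASV12 induced library, was kept for 13 days with 100 ng/ml of doxycycline. The other, the uninduced control library, carried the same construct, was left untreated and is also of day 13. Droplet single-cell RNA sequencing gave 666 cells and 80359736 counts in the induced library and 956 cells and 95350640 counts in the control library. The sources used here do not say whether the line is 1 clone. The control group received no doxycycline, so effects of the drug itself and of HRASV12 cannot be told apart. Each group is 1 library, so nothing could be tested against replicate spread, and every difference describes these 2 libraries.

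Most of these genes are transcribed in a wave. In resting and early G1 cells the DREAM repressor complex sits on their promoters, and in G2 the MuvB core of that complex, joined by MYBL2 and FOXM1, turns them on. Their mRNA peaks in G2 and mitosis and is largely gone after division, and much of the protein is destroyed by the anaphase-promoting complex. A level averaged over a culture can therefore be lower because fewer cells are in G2 or mitosis, because each such cell holds less, or because the other cells hold less. The question addressed was how the difference between the libraries divides among these.

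RefSeq promoter windows (GRCh38.p14, 250 bases before to 50 after a transcript start) were found by symbol for 37 of the 42 members, 41 windows in all. 4 members had 2 windows, which overlap for AURKB, CDK1 and ECT2. The letters TTTGAA, the core of the cell cycle genes homology region (CHR) that MuvB contacts, were searched on both strands, as were the letters CCAAT, the box bound by NF-Y. Below are the last 120 bases before the start for 8 members, chosen because they hold both motifs in that stretch and come from the roles of entry, spindle, cytokinesis and chromosome coat. Capitals mark TTTGAA or its reverse complement TTCAAA and CCAAT or its reverse complement ATTGG, and the 2 motifs share letters at 1 place in MKI67.
CCNB2, chr15:59105026-59105145, plus strand: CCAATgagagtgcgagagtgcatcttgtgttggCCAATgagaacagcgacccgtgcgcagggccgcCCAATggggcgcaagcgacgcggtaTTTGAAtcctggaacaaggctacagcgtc
CDK1, chr10:60778358-60778477, plus strand: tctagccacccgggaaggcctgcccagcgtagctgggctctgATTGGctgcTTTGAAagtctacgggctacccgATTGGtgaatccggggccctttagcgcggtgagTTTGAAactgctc
PLK1, chr16:23678769-23678888, plus strand: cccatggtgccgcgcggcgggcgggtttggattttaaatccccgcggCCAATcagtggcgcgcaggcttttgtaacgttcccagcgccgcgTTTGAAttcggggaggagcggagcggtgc
KIF11, chr10:92593010-92593129, plus strand: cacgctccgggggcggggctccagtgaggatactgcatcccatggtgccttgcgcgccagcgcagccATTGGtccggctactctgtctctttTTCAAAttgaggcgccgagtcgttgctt
KIF23, chr15:69414229-69414348, plus strand: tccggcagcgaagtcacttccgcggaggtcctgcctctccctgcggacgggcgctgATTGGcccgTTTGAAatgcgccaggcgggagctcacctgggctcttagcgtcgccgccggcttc
KIF4A, chrX:70289984-70290103, plus strand: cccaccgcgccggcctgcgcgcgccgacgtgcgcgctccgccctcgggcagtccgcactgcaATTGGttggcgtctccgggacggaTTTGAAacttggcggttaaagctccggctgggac
PRC1, chr15:90994536-90994655, minus strand: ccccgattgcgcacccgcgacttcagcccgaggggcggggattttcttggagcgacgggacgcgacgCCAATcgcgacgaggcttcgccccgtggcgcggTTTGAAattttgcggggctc
MKI67, chr10:128126424-128126543, minus strand: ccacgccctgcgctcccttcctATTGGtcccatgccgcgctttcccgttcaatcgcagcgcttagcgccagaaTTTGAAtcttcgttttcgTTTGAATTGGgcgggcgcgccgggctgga
In CCNB2 and PLK1 the TTTGAA began at -29, counted from the start, with CCAAT further upstream. Of the 41 member windows, 29 held TTTGAA (70.7%), against 15.2% of all 35116 windows of the same length. CCAAT was in 29 (70.7%), against 34.6% of all windows, and both motifs were in 22 (53.7%), against 5.90%. The element is not particular to these genes. The 39 windows of 32 other G2/M genes, none a member, held TTTGAA in 23 (59.0%), CCAAT in 27 (69.2%) and both in 18 (46.2%). Counted only from 60 bases before the start, TTTGAA was in 53.7% of member windows and 53.8% of these. The 44 windows of 31 S phase genes, which are turned on earlier in the cycle, were as rich in CCAAT (30 windows, 68.2%) but held TTTGAA in only 3 (6.82%). Of 19 windows of kinesins and partners mostly of interphase transport, 1 held TTTGAA and 5 held CCAAT. UBE2C, AURKA, BIRC5, TPX2 and TTK were not matched. A match describes these letters and is not a measured binding site.

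All 42 members stood lower in the induced library. Levels are given as CPM, a gene's counts over all counts of its library on the usual scale. Ratios are induced over control, and the 95% intervals beside them are exact and cover counting error only. Summed over the members, the level was 2281 CPM with HRASV12 and 4231 CPM without, giving 0.539. By log2 ratio, computed after adding 1 CPM to each level, 39 of 42 members were at least 1.5-fold lower and 0 were higher by that size. All 42 members reached 10 CPM in 1 library or both; among all 9017 genes that did, 7.73% were lower and 10.3% higher by 1.5-fold. The median log2 ratio was -0.87 for the members and -0.04 for all these genes. By 2-fold, 14 members were lower and 0 higher, against 1.26% and 4.01% of all genes. With TMM scaling 35 members and with DESeq2 size factors 31 were 1.5-fold lower, against 5.04% and 4.12% of all genes. The calls lost under both were CCNB1, PLK1, PRC1 and CKAP2, and those lost with DESeq2 size factors alone were CCNA2, KIF2C, NUF2 and NDC80. The 3 members inside 1.5-fold by each of these scalings were UBE2C, CDC20 and CCNB2. The member just past that line by library totals was CCNB1 (log2 ratio -0.60, against -0.57 for UBE2C). This depended on the setting. Over the alternatives described at the end, the lowest log2 ratios were -0.97 for UBE2C, -0.85 for CDC20 and -0.62 for CCNB2, all past 1.5-fold.

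**Figure D1:**
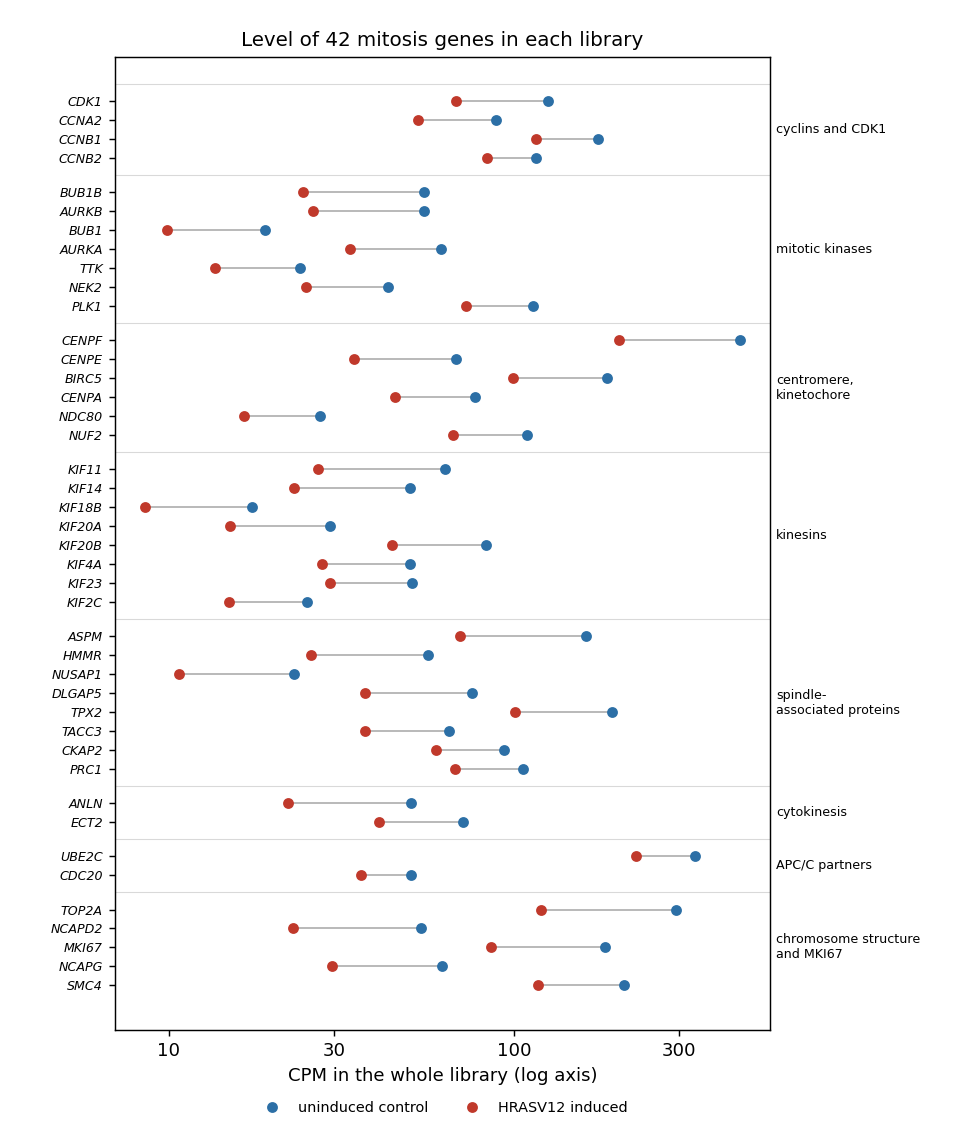
Level of each member in each library, in CPM on a log axis, grouped by role and ordered within a role by log2 ratio; points are library sums and the grey line joins a gene's 2 values. Every induced point lies left of its control point, with the narrowest gaps for CCNB2 and CDC20 and the widest for TOP2A.

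Cyclins and CDK1, the engine of mitotic entry, had a summed ratio of 0.634. CDK1, the kinase itself (ENSG00000170312.16), stood at 67.5 CPM in induced and 125 CPM in control cells (ratio 0.541, 0.523 to 0.558). CCNB1, cyclin B1, its main partner in mitosis (ENSG00000134057.15), stood at 115 against 175 CPM (0.659, 0.643 to 0.676). The partners were thus nearer to level than the kinase. CCNB2, cyclin B2 (ENSG00000157456.8), had the smallest gap of all members, at 83.4 against 115 CPM (0.725, 0.703 to 0.747). CCNA2, cyclin A2, which acts from S phase to early mitosis, stood between them at 52.8 against 88.3 CPM.

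The mitotic kinases had a summed ratio of 0.553, with 7 of 7 past 1.5-fold, or 6 under either other scaling, where PLK1 was inside. AURKA, the kinase of centrosomes and spindle poles, stood at 33.3 against 61.4 CPM (0.543, 0.519 to 0.569). AURKB, the kinase of the chromosomal passenger complex at centromeres and the midzone, stood at 26.0 against 54.7 CPM (0.476, 0.452 to 0.501). PLK1, which acts at entry, at kinetochores and in cytokinesis, was nearest to level, at 72.4 against 113 CPM (0.639, 0.619 to 0.660). Of the spindle checkpoint kinases and their relatives, BUB1B was lowest, at 24.4 against 54.8 CPM (0.445, 0.422 to 0.469). BUB1 and TTK, checkpoint kinases, and NEK2, a centrosome kinase, had log2 ratios from -0.87 to -0.76.

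Centromere and kinetochore genes had a summed ratio of 0.505. CENPF, a large kinetochore and nuclear matrix protein, stood at 200.8 against 449 CPM (0.447, 0.439 to 0.455), the lowest of the 6. CENPA, the histone H3 variant that defines centromeres, stood at 45.1 against 76.8 CPM (0.588, 0.565 to 0.612). BIRC5, survivin, a chromosomal passenger protein, stood at 99.3 against 186 CPM (0.535, 0.521 to 0.550). NUF2 and NDC80, both parts of the NDC80 complex that grips microtubules, had near-equal log2 ratios of -0.70 and -0.70. NUF2, the nearest to level of the 6, stood at 66.4 against 109 CPM (0.611, 0.592 to 0.632). CENPE, a kinetochore kinesin, had a log2 ratio of -0.95.

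Kinesins, the motors of the spindle, had a summed ratio of 0.516, with 8 of 8 past 1.5-fold, or 7 with DESeq2 size factors, where KIF2C was inside. KIF11, which pushes the spindle poles apart, was lowest, at 26.9 against 62.9 CPM (0.428, 0.407 to 0.450). KIF2C, a microtubule depolymerase at centromeres, was highest, at 15.0 against 25.1 CPM (0.597, 0.557 to 0.640). KIF14, KIF20A and KIF23, motors of the midzone and cytokinesis, KIF4A, a chromokinesin that also acts there, KIF20B and KIF18B had log2 ratios from -1.08 to -0.78. Another list held kinesins and kinesin partners mostly of interphase transport. Of its 14 measured genes, 7 were higher by 1.5-fold and 0 were lower, with a median log2 ratio of 0.54. KIF5A, a neuronal transport kinesin, stood at 37.9 against 13.7 CPM. Its relative KIF5C stood at 144 against 64.1 CPM, while KIF1C and KIF2A were the lowest, with log2 ratios of -0.54 and -0.20. KIF2A, unlike the rest, is a microtubule depolymerase related to KIF2C and also acts on the spindle.

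Among spindle-associated proteins (summed ratio 0.528), ASPM, which focuses spindle poles, was lowest at 69.6 against 161 CPM (0.432, 0.418 to 0.445). TPX2, which activates AURKA and nucleates microtubules, stood at 100.3 against 191 CPM (0.524, 0.510 to 0.538). PRC1, which bundles the microtubules of the central spindle, was nearest to level at 67.4 against 106 CPM (0.637, 0.616 to 0.658). HMMR, NUSAP1, DLGAP5, TACC3 and CKAP2 lay between, with log2 ratios from -1.09 to -0.65. The cytokinesis pair differed in size: ANLN, anillin, the scaffold of the contractile ring, stood at 22.1 against 50.1 CPM (0.440, 0.417 to 0.465), and ECT2, which activates RHOA at the ring, at 40.5 against 71.1 CPM (0.570, 0.546 to 0.594).

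The partners of the anaphase-promoting complex were the role nearest to level by library sums, with a summed ratio of 0.681. In cells brought to equal depth, described below, that lead was small. There the role had means of 12.5 counts per induced and 20.8 per control cell, and cyclins and CDK1 had 16.2 and 28.0. CDC20, its mitotic activator, stood at 36.1 against 50.2 CPM (0.719, 0.686 to 0.753), and UBE2C, its ubiquitin-conjugating enzyme, at 225 against 333 CPM (0.675, 0.663 to 0.687). The genes of chromosome structure, with MKI67, were the role furthest from level, at 0.469. TOP2A, the topoisomerase that untangles sister chromatids, had the lowest ratio of all members, at 119 against 293 CPM (0.408, 0.399 to 0.418). MKI67, the Ki-67 antigen that coats mitotic chromosomes, stood at 85.3 against 183 CPM (0.466, 0.453 to 0.479). Of the condensin subunits, NCAPD2 and NCAPG, found in condensin I, had log2 ratios of -1.20 and -1.03, and SMC4, shared with condensin II, had -0.82. SMC4, the nearest to level of this role, stood at 117 against 208 CPM (0.565, 0.551 to 0.579).

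Other genes of the pathway were counted by list, and differences between lists were not tested. Counted by the same 1.5-fold line, 28 of 38 further G2/M genes were lower and 0 higher (median -0.74), with KIF15 and INCENP the lowest and KPNA2 and KNSTRN the highest. Of 15 condensin and cohesin genes, 8 were lower and 0 higher (median -0.59, NCAPG2 and ESPL1 lowest, PDS5A and NCAPH2 highest), and of 20 centrosome genes, 9 were lower and 0 higher (median -0.56, CEP152 and CDK5RAP2 lowest, CEP63 and CETN2 highest). Of 21 further checkpoint and kinetochore genes, 5 were lower (median -0.48, SPC24 and ZWINT lowest, CENPT and CLASP2 highest), and of 18 genes of entry and exit control, 5 were lower (median -0.44, RBL1 and CDC25A lowest, PPP2R5C and ARPP19 highest), with 0 higher in both lists. The core of the anaphase-promoting complex, whose subunits are made throughout the cycle, had a median of -0.07 over 16 genes, 1 of them lower. That gene was FBXO5, an inhibitor of the complex made in S and G2, at 32.7 against 56.4 CPM. ANAPC1 was next lowest, and ANAPC15 and ANAPC13 were the highest (0.37 and 0.54). Other genes of cytokinesis and abscission had a median of -0.05 over 14 genes, with CIT, citron kinase, and MYH10 the lowest and MYH9 and PLK2 the highest. PLK2, a stress-induced relative of PLK1, stood at 68.5 against 11.7 CPM. S phase genes were lower as well, 30 of 35 with 0 higher (median -0.89, HELLS and CDCA7 lowest, SLBP and UBR7 highest). A list of quiescence genes, CDK inhibitors and D cyclins, which also held RB1, CDK4, CDK6, BTG1, BTG2 and KLF6, had no common direction. Of its 14 measured genes, 3 were higher and 2 lower (median 0.08), with CDKN2B and CCND1 highest. The 2 lower genes were BTG2 and CDK6, neither of them a CDK inhibitor or a D cyclin.

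To separate the share of cells from the level per cell, cells were cut down by random draws to an equal depth of 53000 counts, which kept 562 induced and 766 control cells. The 42 members together then gave from 1 to 1093 counts per induced cell, with a median of 42, and from 3 to 2230 counts per control cell, with a median of 165. The 5th and 95th percentiles were 6 and 491 for induced cells and 22.3 and 699 for control cells, so the libraries overlapped over nearly the whole range. What differed was how the cells were spread over it. With Clopper-Pearson intervals, 33.8% of induced cells (29.9 to 37.9) but 4.70% of control cells (3.31 to 6.45) held at most 20 member counts. At the top, 6.76% of induced (4.83 to 9.16) but 17.6% of control cells (15.0 to 20.5) held more than 400. The control median was exceeded by 24.6% of induced cells (21.05 to 28.3) and the control 95th percentile by 2.14% (1.11 to 3.70). The median induced cell had at least 1 count of 20 of the 42 members, the median control cell of 35.

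Cells were then scored by 38 other G2/M genes, none of them a member, such as CKS2, CDCA3, HJURP and PTTG1. The score is the mean of ln(1 + count) over these genes, and a 2-class (Otsu) threshold set in the control cells, at 1.12, divided cells into those above and below the cut. Above it lay 112 of 562 induced cells, 19.9% (16.7 to 23.5), and 315 of 766 control cells, 41.1% (37.6 to 44.7), a ratio of shares of 0.485. Without thinning, with counts scaled to the same depth, the shares were 19.97% of 666 and 39.3% of 956 cells. The score has no gap at the cut: 29 induced and 101 control cells lay within 0.1 of it, so the class is a range of scores and not a type. All 42 members were at least 2-fold higher above than below the cut in each library, with median log2 ratios of 3.01 for induced and 2.08 for control cells. By that size 4.14% of all genes were higher above the cut among induced cells and 1.6% among control cells. Since the score genes and the members vary together from cell to cell (Pearson r between score and log member counts 0.930 over 562 induced and 0.937 over 766 control cells, each set from 1 library at equal depth), this contrast describes the cut and is no result about the members.

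**Figure D2:**
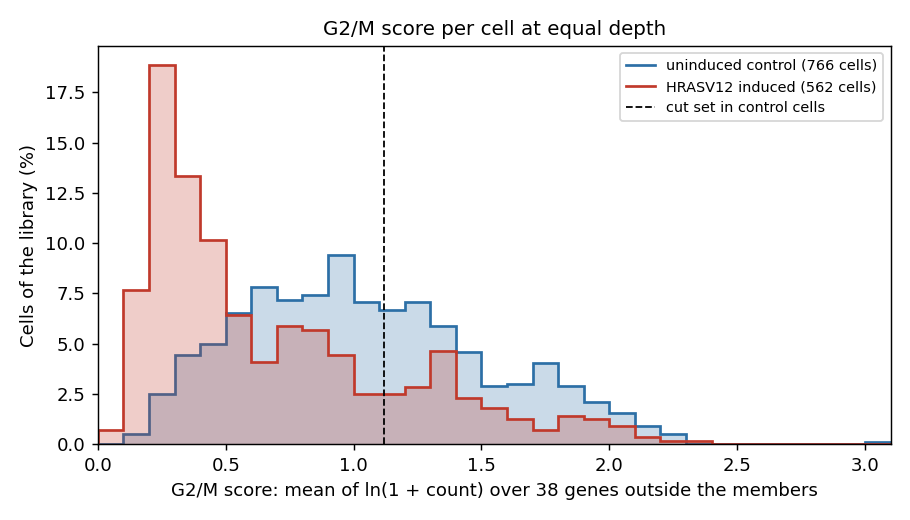
Share of each library's thinned cells, in percent, by G2/M score in steps of 0.1; the dashed line is the cut set in control cells. The induced library has its peak at low scores and 19.9% of cells above the cut, the control library a broad spread with 41.1% above it.

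Above the cut the members were close to level between the libraries. An induced cell there held 403 member counts on average (399 to 407) and a control cell 419 (417 to 421), a ratio of 0.961 (0.951 to 0.972). These intervals leave out the spread between cells, whose standard deviations were 196 counts in induced and 225 in control cells. The medians were 335 and 348 counts, with quartiles of 267 and 496 for induced and 255 and 526 for control cells. The cells ran from 171 to 1093 counts in the induced and from 153 to 2230 counts in the control library. Since cells enter this class by genes that vary with the members, the level above the cut is partly fixed by the cut itself. Of the 42 members, 0 were 1.5-fold lower and 0 higher there, against 2.01% and 5.23% of 8989 genes measured in these cells. The member ratios ran from 0.779 for ANLN to 1.22 for CDC20, and the quartile ranges of the 2 libraries overlapped for 42 of 42 members. The median total before thinning was 132360 counts in induced and 110745 in control cells above the cut, and the median mitochondrial percent 10.1 and 11.9; their part in the ratio was not tested.

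Below the cut the members were lower in the induced library. Induced cells there held 51.4 member counts on average and control cells 101, a ratio of 0.508. Of 38 members measured in these cells, 32 were at least 1.5-fold lower and 0 higher, against 7.64% and 11.7% of all genes. BUB1, TTK, KIF20A and KIF2C did not reach the floor of 10 CPM there. The difference in mean member counts, 121 in induced against 232 in control cells, can be split exactly into 3 terms. Of it, 64.2% went with the share of cells above the cut, 31.3% with the level below it and 4.48% with the level above it. Below the cut the summed counts of the score genes were lower in induced cells too (ratio 0.620). The cells there were thus not alike in score, and the 31.3% is not a difference in level at like score. The split depends on where the cut is placed. With the cut set in each library by itself, 26.7% of induced and 41.1% of control cells lay above it, the ratio of levels above was 0.823, and the shares of the 3 terms were 40.7%, 36.5% and 22.8%. With a score from summed counts, which put 10.3% and 19.6% of cells above the cut, the first term was 37.5%.

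**Figure D3:**
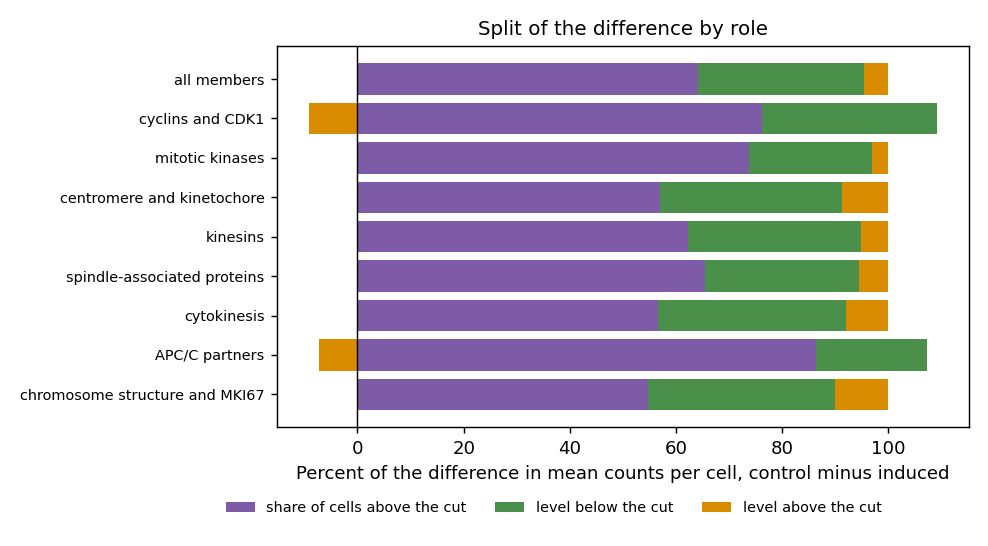
Percent of the difference in mean counts per thinned cell, control minus induced, that goes with the share of cells above the cut, the level below it and the level above it, for all members and each role; the 3 terms add to 100%. The level above the cut takes at most 10.1% in any role and is negative for cyclins and CDK1 and for the partners of the anaphase-promoting complex, whose level above the cut was higher in the induced library.

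Cells were also compared at like scores, without a cut, by placing them in 5 bins whose edges are the quintiles of the control score. In the top bin, 51 induced cells held a median of 510 member counts and 153 control cells 532. In the next, 59 induced cells held 273 and 153 control cells 262, and in the third the medians were 166 and 161. In the second bin they were 94 in 77 induced and 98 in 153 control cells. The quartile ranges overlapped in each of these 4 bins. Score and member counts are nearly the same measure (the r values above), so cells matched on score are largely matched on member counts beforehand, and the bins say little on their own about the level per cell. The lowest bin held 327 induced cells (58.2%) and 154 control cells (20.1%), with medians of 17 and 36, but the cells in it were not alike in score (median 0.310 against 0.460). In steps of 0.1 the medians were 10 in 106 induced and 15 in 19 control cells for scores from 0.2 to 0.3, 20 in 75 induced and 22 in 34 control cells for scores from 0.3 to 0.4, and 35 in 57 and 37.5 in 38 cells for scores from 0.4 to 0.5. They were 52 against 57.5 from 0.5 to 0.6, and 67 in 23 induced and 81 in 60 control cells from 0.6 to 0.7. From 0.7 to 0.8 they were 97 against 101, and from 0.8 to 0.9 they were 114 against 117. In the steps above these the induced medians were level or higher. They were 147 against 146.5 from 0.9 to 1, 187.5 against 181 from 1 to 1.1, and 238 against 213 from 1.1 to 1.2.

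**Figure D4:**
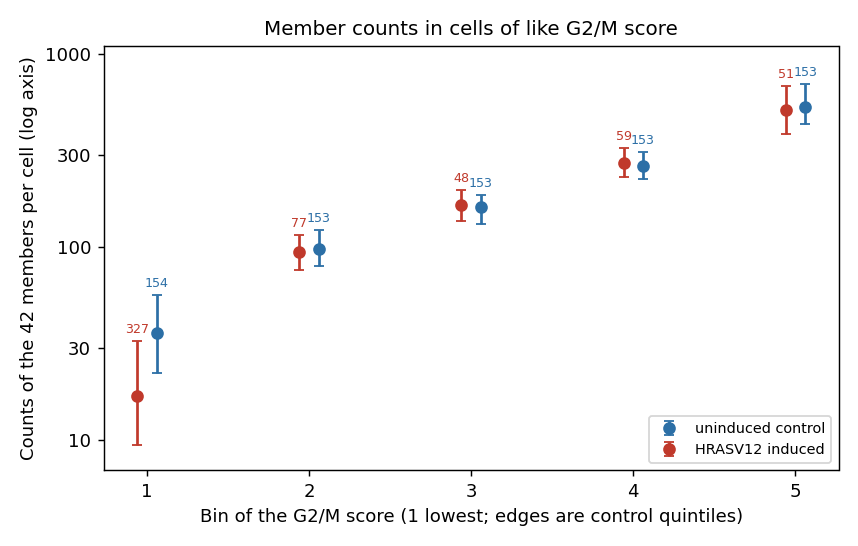
Member counts per thinned cell on a log axis in 5 bins of the G2/M score; points are medians, bars run from the lower to the upper quartile and the small figures are numbers of cells. Induced and control cells lie side by side in bins 2 to 5; in bin 1 induced cells have a median of 17 and control cells of 36, with quartile ranges that overlap.

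The cells below the cut were divided once more by a score of 39 S phase genes, with a threshold set in the same way. S phase scores above that threshold were found in 65 induced cells (11.6%, 9.04 to 14.5) and 229 control cells (29.9%, 26.7 to 33.3) below the G2/M cut. Their member counts were close, with means of 122 and 126 and medians of 114 and 118. Below both cuts lay 385 induced cells (68.5%, 64.5 to 72.3) and 222 control cells (29.0%, 25.8 to 32.3). There the libraries differed: the mean was 39.5 in induced and 75.5 in control cells (ratio 0.524), the median 21 against 57, and the quartiles 10 and 46 against 29.3 and 111. The summed counts of the G2/M score genes were lower in induced cells there too (ratio 0.663), so these cells were not alike in score. With 3 classes of cells, 78.9% of the difference went with their shares, 15.9% with the level below both cuts and 4.48% with the level above the G2/M cut. Cells with a low mitochondrial percent or low MALAT1, a nuclear RNA, were more frequent in the induced library (5th percentiles 1.44 against 8.52% and 33.6 against 238 CPM). When only cells that reached the control 5th percentile of both measures were used, the mean below both cuts was 32.1 against 74.6 counts (ratio 0.431, 221 and 194 cells) and the shares above the G2/M cut were 20% and 40.8%.

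Below both cuts all 42 members had a lower mean in the induced library, with ratios from 0.331 to 0.744. Of the 35 that reached 10 CPM there, 30 were at least 1.5-fold lower and 0 higher, against 6.17% and 12.2% of all 8951 genes measured in these cells. TOP2A had a mean of 1.44 counts per induced and 4.29 per control cell, and at least 1 count in 41.0% of induced and 75.7% of control cells. CENPF had 3.51 against 9.31 counts and was detected in 64.4% and 92.3% of cells. BIRC5 stood at 2.13 against 4.73 counts, MKI67 at 1.15 against 2.56 and CDK1 at 0.787 against 1.64. UBE2C, at 4.11 against 5.53 counts, and PLK1, at 1.13 against 1.68, were nearer to level. Such low counts can come from free RNA as well as from the cell. Neither culture holds a cell type that should lack these genes, so a background share could not be set, and these values are not read as expression in resting cells.

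By detection over all thinned cells, members had at least 1 count in 27.4 to 89.7% of induced and 48.3 to 98.3% of control cells. TOP2A was found in 58.7% of induced and 92.0% of control cells (64.0% and 92.2% unthinned), CCNB1 in 68.0% and 90.7% (76.7% and 92.4%), and AURKB in 41.99% and 75.8% (49.4% and 75.9%). Above the G2/M cut these shares came together. TOP2A had a count in 99.1% of induced and all control cells there, CCNB1 in 100% and 98.1%, and AURKB in 92.9% and 98.4%. The lowest share above the cut was that of KIF18B, with 65.2% and 70.5%.

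Within the cells above the cut, the members did not all keep the same proportion. CDC20 had a mean of 6.40 counts per induced and 5.27 per control cell (ratio 1.22, 1.11 to 1.33), with medians of 5 and 4. CCNB2 had 12.9 against 10.99 counts (1.17, 1.1 to 1.24) and medians of 12 and 9, and PRC1 had 10.6 against 9.44 (1.12, 1.04 to 1.20) with medians of 9 and 9. These 3 were the members that stood higher in the induced library in each of 12 settings of the score, cut, depth and cells. Their lowest log2 ratios over the settings were near level, at 0.04 for CCNB2, 0.03 for CDC20 and 0.002 for PRC1. The settings reuse the same cells and include a score from the members, so they are not independent. At the other end, TOP2A had 24.4 against 30.1 counts (0.810, 0.775 to 0.845), with medians of 18.5 and 25 and quartile ranges of 13 to 31 and 17 to 37. ANLN had 3.78 against 4.85 (0.779), NCAPD2 3.64 against 4.60 (0.792) and CENPF 36.8 against 43.9 (0.838). HMMR had 5.10 against 6.10 (0.836) and AURKB 4.49 against 5.36 (0.838). These 6 were among 16 members that stood lower in each of the 12 settings, and 23 members, CCNB1 and PLK1 among them, changed sides between settings. The intervals of these ratios leave out the spread between cells, and in each case the quartile ranges of the 2 libraries overlapped. NCAPD2, HMMR and the examples by detection were picked after their values were seen.

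**Figure D5:**
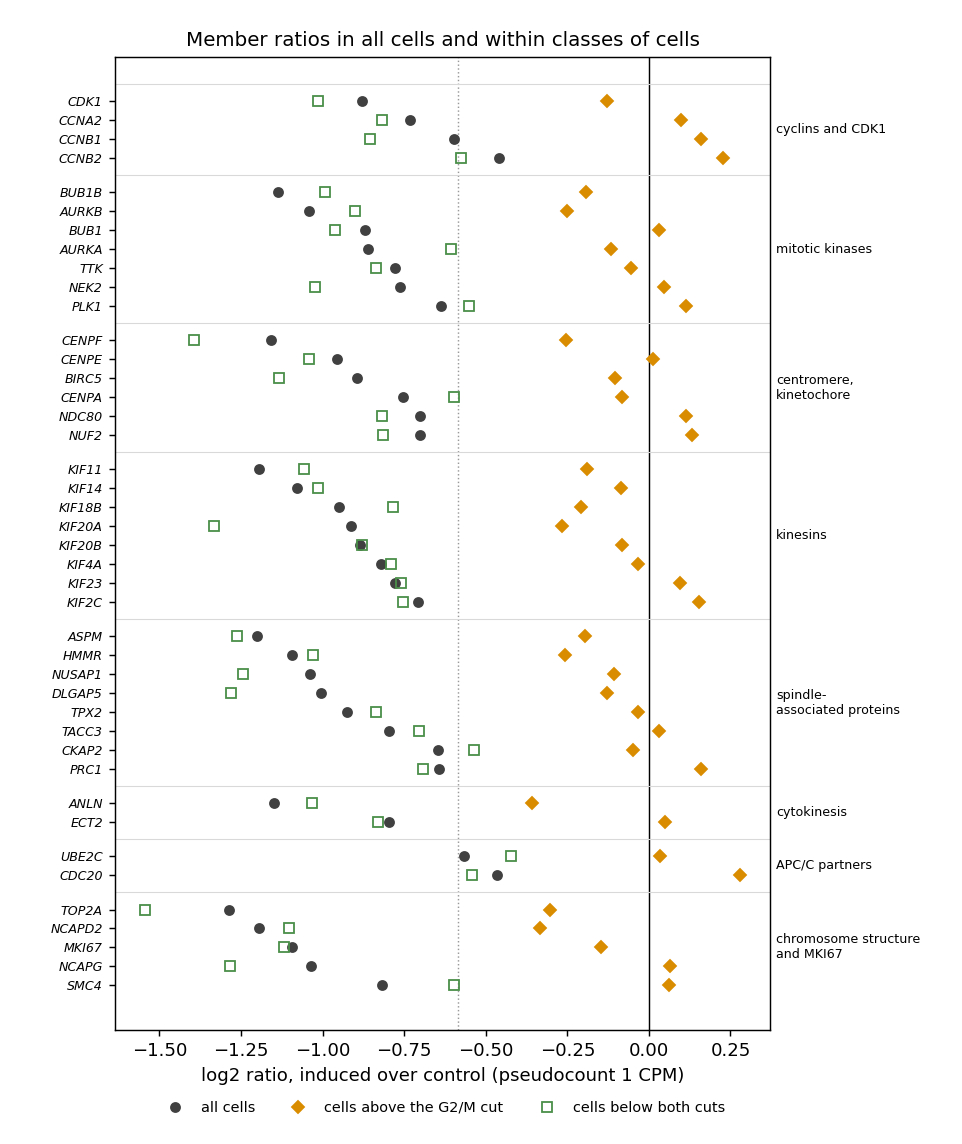
Log2 ratio of induced over control for each member in all cells, in thinned cells above the G2/M cut and in thinned cells below both cuts, by role; the dotted line marks 1.5-fold lower and the 7 members under 10 CPM below both cuts are drawn too. Values above the cut lie around 0, from -0.36 for ANLN to 0.28 for CDC20, and those below both cuts lie below 0 for every member.

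The part of the difference that went with the share of cells above the cut was over 50% for 37 of 42 members and ran from 40.6% for KIF18B to 110% for CDC20, whose level above the cut was higher in the induced library. Both other terms set its size: for KIF18B 46.9% went with the level below the cut and 12.5% with the level above it, and for BIRC5 (45.4%) the values were 47.9% and 6.64%. By role it was highest for the partners of the anaphase-promoting complex (86.4%), for cyclins and CDK1 (76.2%) and for mitotic kinases (73.7%). It was lowest for chromosome structure (54.8%), cytokinesis (56.7%) and centromere and kinetochore (57.0%), the roles that hold TOP2A, ANLN and CENPF. No value here tests whether the order of roles differs beyond the spread between cultures.

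Facts of the libraries that touch these results are few. The libraries shared 0 cell barcodes. The line's own markers were present in both: of 12 adrenergic neuroblastoma markers, 11 passed the floor, and the list summed to 4688 CPM in induced and 4866 CPM in control cells. Markers of other cells were low. Of 9 endothelial markers only EGFL7 (53.4 against 96.4 CPM) and ESAM (10.7 against 3.22 CPM) reached the floor. Under it, TIE1 (3.17 against 1.14 CPM), CDH5 (2.63 against 0.965), KDR (1.92 against 0.157) and TEK (1.07 against 0.115) were higher in the induced library. PECAM1 stood at 3.97 against 3.07 CPM, VWF at 0.324 against 0.294 and CLDN5 at 0.212 against 0.430. The list sum of 77.4 against 106 CPM is mostly EGFL7. Of 6 fibroblast markers only LUM did (64.5 against 18.5 CPM), with COL1A1 at 5.65 against 2.22 CPM and a list sum of 78.8 against 24.7 CPM. The immune, Schwann and erythroid lists had none at the floor and summed to 2.02, 9.71 and 1.49 CPM with HRASV12 and 1.75, 9.33 and 1.75 CPM without. Only 3 of 7 immune and 4 of 6 Schwann markers were found by symbol. CD3E, CD68, MS4A1, NKG7, SOX10 and FOXD3 were not, so these sums leave them out. None of the markers in the table was at 0 in either library. Their part in the results was not tested.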

How the data were processed

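Droplet 3' libraries (10x Genomics Chromium) were made from 1 culture per group. Per the submitters' processing notes, kallisto and bustools were used. The sources used here name no version, build or annotation. The authors deposited whole-number counts per gene and cell, with an annotation that gives, per the file headers, each cell's type and the mitochondrial percent the authors computed (at most 19.97). All 1622 cells are marked singlets. The sources used here do not state how cells were filtered. Cells were assigned by that annotation, whose rows follow the order of the table's columns (totals differed by at most 192 counts). Gene symbols and other labels come from the deposited gene annotation, where 376 rows repeat a symbol, none of them a member's.

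Counts were summed per library and scaled to CPM. Log2 ratios used a pseudocount of 1 CPM, which understates differences of low genes, and a floor of 10 CPM in either library. For values per cell, cells were thinned to 53000 counts, a depth that kept at least 80% of each library, leaving out 104 induced and 190 control cells. The median total before thinning was 111582 counts per induced and 85821 per control cell. Intervals are exact at 95% (Poisson, conditional binomial or Clopper-Pearson) and cover counting error only. Where nothing was counted the upper limit is 3 counts, or 0.0373 CPM with HRASV12 and 0.0315 CPM without. No test was run, since cells are not replicates. Computations used Python 3.11.15, numpy 2.4.6 and scipy 1.17.1, with scaling factors from edgeR 4.0.16 and DESeq2 1.42.0, used for no test.

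The difference in mean counts was split into the difference in shares times the mean contrast of levels, plus the mean share times the difference in level above the cut, plus the same below it. On simulated induced and control libraries of 8568 genes, 100 of 100 genes made 3-fold higher and 100 of 100 made 3-fold lower passed 1.5-fold and 0 of 8368 unchanged genes did. The simulated counts held Poisson error only, so the outcome checks the calculation and says nothing of the spread between cells or cultures. The members, lists, score genes and alternatives were chosen with earlier results of these data known. Every member is given by role, with full values for 15 fixed genes and the highest and lowest of each role, and the 2 highest and 2 lowest measured genes of each other list are named. Alternatives were other scalings, totals, pseudocounts and floors, other sets of cells, and other cuts, scores, depths and a second random draw.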

Additional observations from a re-analysis of the deposited data

How the results depend on the processing

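Over 12 alternatives the number of members at least 1.5-fold lower was between 29 and 41, the 29 being of 32 members at a floor of 50 CPM. It was 35 of 42 with TMM scaling and 31 of 42 with DESeq2 size factors, and 504 of 504 member log2 ratios stayed below 0. The median log2 ratio of the members was -0.77 with TMM scaling and -0.72 with DESeq2 size factors. It was -0.97 when ribosomal protein and mitochondrial counts were kept out of the totals. These scalings put the median of all measured genes at 0.08, 0.13 and -0.14, against -0.04. That shift is larger than the medians of 3 lists: the anaphase-promoting complex core, other cytokinesis, and quiescence and CDK inhibitors. The ratio of shares above the cut lay between 0.470 and 0.527 in 10 of 11 alternatives and was 0.649 with a cut set in each library. The ratio of levels above the cut was 0.985 with a cut at the control median, 0.979 with a cut over both libraries, 0.930 at the control 75th percentile, 0.823 with a cut in each library, 0.902 with a score from summed counts, 0.942 at 30000 counts, 0.937 with another random draw, 0.978 for cells within the mitochondrial and MALAT1 limits and 0.939 without the 5% of cells with the most counts. The percent of the difference that went with the share of cells was 74.2, 72.3, 46.5, 40.7 and 37.5 under the first 5 of these. With 80000 counts per cell 1 member, NCAPD2, was 1.5-fold lower above the cut. The causes were not tested. No paired analysis was possible because each group has 1 library. With 1 library per group, differences between cultures cannot be told apart from those between groups, and cells below both cuts carry too few counts per gene to separate free RNA from transcripts of the cell.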
